A study of Mus musculus with 6 samples.

Results

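The enzymes that build, lengthen and desaturate fatty acids were followed through 10 genes: Acly, Acss2, Acaca, Fasn, Me1, Elovl1, Elovl5, Elovl6, Fads1 and Fads2. They were chosen by gene name from a deposited table of 23060 rows, and all 10 were in it. RNA came from wild-type cells that the labels call HL-1, which is a line of mouse atrial cardiomyocytes. All cultures grew in Claycomb medium with 10% fetal bovine serum and 0.1 mM norepinephrine. A control group and a tachypaced group of 3 libraries each were compared, tachypacing being rapid electrical stimulation used to imitate the atrial rate of fibrillation in culture. The sources used here state neither the pacing rate nor its duration. The labels do not say that replicates came from separate cultures, so the p-values reflect the spread among these 6 libraries alone, and that spread may be technical.

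Fatty acid synthesis starts from acetyl-CoA in the cytosol, which is carboxylated to malonyl-CoA and condensed in repeated cycles to palmitate, with NADPH as the reductant. Palmitate is then lengthened by elongases in the endoplasmic reticulum and given double bonds by desaturases. Many of these genes are targets of the SREBP transcription factors, which also act on the cholesterol pathway, and in cultured cells the pathway is known to supply membrane lipid for growth and to respond to lipids in the medium.

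Values are FPKM (fragment numbers per unit of transcript length and of library size), a measure per length that allows levels of different genes to be set side by side. Changes are log2 fold changes, tachypaced minus control, on the log2(FPKM + 1) scale, on which changes of weakly expressed genes come out too small. They were tested with limma over the 10361 genes averaging 1 FPKM or more, and a gene passed at a Benjamini-Hochberg adjusted p under 0.05. Read depth is unknown, since the table holds no counts, so no counting interval can be given.

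Some facts of the libraries stand before the results. Of 20 cardiomyocyte markers only 2, Tnni3 and Tnnc1, reached a mean of 1 FPKM, and 8, Myh6 and Actc1 among them, were listed at 0 in every library. Of 20 macrophage markers 15 reached that level and 4, C1qa, C1qb, C1qc and Mrc1, were listed at 0, so the labelled cell type was not borne out by its defining transcripts. The summed macrophage markers were between 2314 and 2601 FPKM in the control group and between 2814 and 3092 FPKM in the tachypaced group, and 5 of them rose while 0 fell. Of 10 adipocyte markers, cells known for fatty acid synthesis, 4 (Adipoq, Plin1, Lep and Pparg) were listed at 0, and the summed level, nearly all of it from Fabp4 and Lpl, ran from 182 to 188 FPKM in control and from 215 to 252 FPKM in tachypaced libraries. These 2 genes went opposite ways: the fatty acid carrier Fabp4 rose from 107 to 169 FPKM and the lipoprotein lipase Lpl fell from 77.5 to 61.2 FPKM in the group means (limma adjusted p = 0.0435 each). Transcripts of the mitochondrial genome held between 7.91% and 8.42% of a control library's summed FPKM and between 9.001% and 9.72% of a tachypaced one's, without overlap. In a culture, fewer cells of a type and less RNA per cell cannot be told apart. Control replicate 1 lay toward the tachypaced libraries on most of the enzymes, as the values below show.

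In tachypaced libraries 5 of the 10 enzyme genes fell and 0 rose: Fasn, Acaca, Acss2, Acly and Fads1. Of all tested genes 3.22% fell and 2.3% rose by the same rule. All 10 had a negative log2 fold change, as had 58.9% of tested genes. The median over the 10 was -0.45, and over all tested genes -0.04. In 9 of the 10 every tachypaced library lay below every control library, against 22.4% of tested genes without overlap in that direction and 12.6% in the other. Fasn, Acaca and Acss2, on the way from acetate to palmitate, had the largest differences, while the elongases Elovl1 and Elovl5 showed the smallest. Each of the 5 calls was close to the threshold, with limma adjusted p from 0.0435 to 0.0467. When any library other than control replicate 1 was left out, 0 of the 10 genes passed. In those fits 7 to 9 of the 10 had an unadjusted limma p under 0.05. So had between 1989 and 2741 of the 10361 tested genes. Without control replicate 1, 8 of the 10 fell, where 18.8% of all tested genes did. The split of calls over all tested genes moved with the scaling, from 58.4% lower here to 40.2% with median of ratios scaling, 23.5% with quantile normalization and 78.7% with a common summed FPKM per library.

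**Figure D1:**
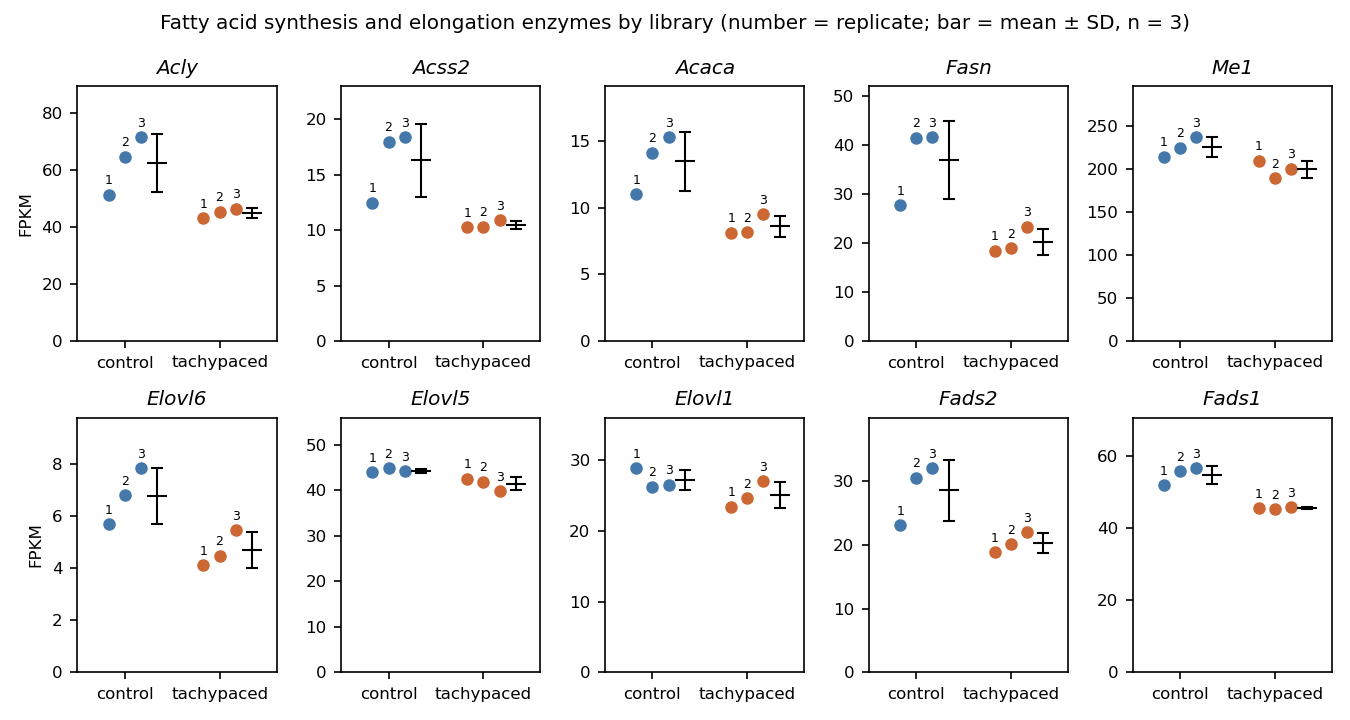
FPKM of the 10 enzyme genes in each library (y axes start at 0), control in blue and tachypaced in orange, with the replicate number beside each point and the mean ± SD (n = 3) as a black bar. Every tachypaced library lies below every control library except for Elovl1, and control replicate 1 is the lowest control for all but Elovl1.

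Cytosolic acetyl-CoA comes from citrate through ATP citrate lyase, Acly, and from acetate through acetyl-CoA synthetase 2, Acss2. Acly (chromosome 11, 100476353 to 100528000, minus strand, GRCm38) stood at 51.4, 64.7 and 71.7 FPKM in control replicates 1 to 3 and at 43.1, 45.4 and 46.5 FPKM in the tachypaced replicates. The groups did not overlap, and the tachypaced libraries lay within a far narrower band (45.0 ± 1.70 against 62.6 ± 10.3 FPKM, SD, n = 3 each). Acly fell by 0.45 on the log2 scale (SE 0.11, limma adjusted p = 0.0467). Acss2 (chromosome 2, 155517948 to 155585724, plus strand) stood at 12.5, 17.96 and 18.4 FPKM in control and at 10.3, 10.3 and 10.9 FPKM in tachypaced libraries. Here too all 3 tachypaced values lay under the lowest control, which was replicate 1. The log2 fold change of Acss2 was -0.57 (SE 0.13, limma adjusted p = 0.0458). Its annotated span overlaps Gss, a glutathione synthesis gene on the opposite strand with a log2 fold change of -0.11, and the sources used here do not say whether strand was used in counting.

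Acetyl-CoA carboxylase 1, Acaca, makes malonyl-CoA and is the committed step of the pathway. Acaca (chromosome 11, 84129672 to 84401651, plus strand) stood at 11.01, 14.2 and 15.3 FPKM in control and at 8.14, 8.18 and 9.53 FPKM in tachypaced libraries. The mean fell from 13.5 ± 2.24 to 8.62 ± 0.791 FPKM, and the log2 fold change was -0.58 (SE 0.11, limma adjusted p = 0.0435). Acacb, the mitochondrial isoform whose malonyl-CoA restrains fatty acid oxidation, stood at 0.742 ± 0.188 and 0.793 ± 0.137 FPKM and was below the level tested.

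Fatty acid synthase, Fasn, the multifunctional enzyme that assembles palmitate, had the largest change of the 10. Fasn (chromosome 11, 120805846 to 120824547, minus strand) stood at 27.7, 41.5 and 41.6 FPKM in control and at 18.4, 18.9 and 23.3 FPKM in tachypaced libraries. Control replicate 1 was far under the other controls, yet above every tachypaced library. The tachypaced mean was 54.8% of the control mean, and the log2 fold change of -0.82 (SE 0.15, 95% interval -1.17 to -0.48, limma adjusted p = 0.0435) was the 11th lowest of the 10361 tested. That adjusted p was shared by 263 genes. On the same scale the values of Acaca, Acss2, Fads2, Acly and Elovl6 ranked from 53rd to 164th from the lowest.

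Malic enzyme 1, Me1, turns malate into pyruvate and yields NADPH for the synthase. Me1 (chromosome 9, 86581371 to 86695953, minus strand) was the most abundant of the 10, at 214, 225 and 238 FPKM in control and 210, 190 and 200.4 FPKM in tachypaced libraries. The groups stood apart by a small gap between control replicate 1 and tachypaced replicate 1. Its log2 fold change was -0.17 (SE 0.06, limma adjusted p = 0.0949) and it did not pass.

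Among the elongases, which condense malonyl-CoA with an existing acyl chain, Elovl6 acts on saturated and monounsaturated chains, palmitate among them. Elovl6 (chromosome 3, 129532355 to 129638495, plus strand) was the least abundant of the 10, at 5.70, 6.80 and 7.84 FPKM in control and 4.13, 4.50 and 5.46 FPKM in tachypaced libraries. Tachypaced replicate 3 came close to control replicate 1. The log2 fold change of Elovl6 was -0.45 (SE 0.12, limma adjusted p = 0.0591), short of the threshold. Elovl5, which lengthens polyunsaturated chains (chromosome 9, 77917364 to 77984519, plus strand), stood at 44.0, 44.8 and 44.2 FPKM in control and 42.6, 41.9 and 39.9 FPKM in tachypaced libraries. The controls, replicate 1 included, agreed closely here. Its log2 fold change was -0.10 (95% interval -0.21 to 0.02, limma adjusted p = 0.236). Elovl1, which makes very long saturated chains (chromosome 4, 118428093 to 118432953, plus strand), stood at 28.9, 26.3 and 26.5 FPKM in control and 23.5, 24.7 and 27.1 FPKM in tachypaced libraries. It was the only one of the 10 whose groups overlapped, and the only one for which control replicate 1 was the highest control. Its log2 fold change was -0.12 (95% interval -0.27 to 0.04, limma adjusted p = 0.282). The annotated end of Elovl1 overlaps the mitotic gene Cdc20 on the opposite strand by 53 bases, and Cdc20 had a log2 fold change of -0.58.

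Fads2 and Fads1, the delta-6 and delta-5 desaturases of polyunsaturated fatty acid synthesis, are neighbours on chromosome 19 on opposite strands. Fads2 (10062765 to 10101746) stood at 23.1, 30.5 and 31.9 FPKM in control and 18.9, 20.1 and 21.9 FPKM in tachypaced libraries. Its log2 fold change was -0.46 (SE 0.11, limma adjusted p = 0.0511), just outside the threshold. Fads1 (10182888 to 10196877) stood at 52.1, 55.8 and 56.6 FPKM in control and 45.5, 45.4 and 45.9 FPKM in tachypaced libraries. The 3 tachypaced values lay within a very narrow band (45.6 ± 0.260 FPKM). Fads1 fell by 0.26 on the log2 scale (SE 0.05, limma adjusted p = 0.0435), so with the smaller change it passed where Fads2, with the wider spread, did not.

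**Figure D2:**
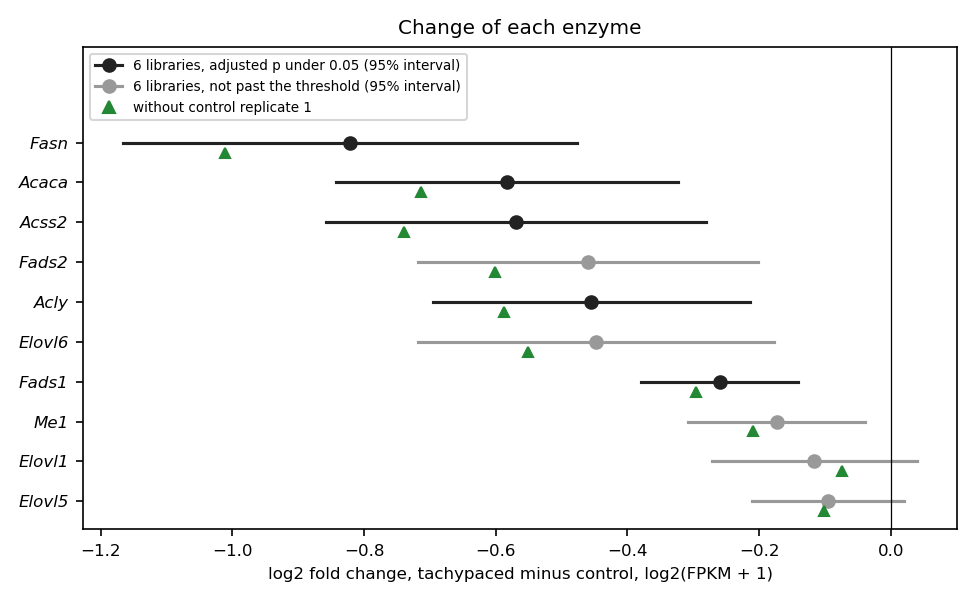
Log2 fold change of each enzyme gene (x axis, log2(FPKM + 1) scale) with its 95% interval, dark where the adjusted p was under 0.05 and grey where it was not. Green triangles give the value without control replicate 1. Fasn lies lowest at -0.82, the intervals of Elovl1 and Elovl5 include 0, and without control replicate 1 the value moves further from 0 for all but Elovl1.

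The place of control replicate 1 was measured for each gene on a scale where the mean of the other 2 controls is 0 and the mean of the tachypaced libraries is 1. It was 0.56 for Fasn, 0.55 for Acaca, 0.56 for Elovl6 and 0.52 for Me1. It was 0.68 for Acly, 0.69 for Acss2 and 0.70 for Fads2. On these 7 genes the library lay nearer to the tachypaced mean than to the mean of the other controls. For Fads1 it was 0.37 and for Elovl5 0.17. Without this library the log2 fold changes were -1.01 for Fasn, -0.71 for Acaca, -0.74 for Acss2, -0.59 for Acly, -0.60 for Fads2, -0.55 for Elovl6, -0.30 for Fads1 and -0.21 for Me1, and these 8 passed (limma adjusted p from 0.000432 for Acss2 to 0.0232 for Me1). The control libraries had the larger SD for 8 of the 10 genes, all but Elovl1 and Elovl5.

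In control libraries the levels ran, from the highest, Me1, Acly, Fads1, Elovl5, Fasn, Fads2, Elovl1, Acss2, Acaca and Elovl6. The library ranges of Acly and Fads1, of Fasn and Fads2, of Fads2 and Elovl1, and of Acss2 and Acaca overlapped, so these neighbours were not separated beyond their spread. In tachypaced libraries Fasn stood 7th instead of 5th, beneath Elovl1 and level with Fads2 (20.2 ± 2.71 and 20.3 ± 1.54 FPKM). The ranges of Fads1 and Acly and of Fads2 and Fasn overlapped there. The 10 genes together held between 0.115% and 0.132% of a control library's summed FPKM and between 0.0946% and 0.103% of a tachypaced one's, without overlap. Me1 was a large part of this sum. Without Me1 the enzymes summed to between 256 and 314 FPKM in control and between 215 and 230 FPKM in tachypaced libraries.

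Whether enzymes changed by different amounts was asked of 8 pairs, as the difference of log2(FPKM + 1) within each library, with an exact two-sided permutation test of 3 against 3 libraries. The smallest p this design allows is 0.1, so no pair could pass. The excess of Fasn over Acaca was 1.26, 1.49 and 1.38 in control and 1.09, 1.11 and 1.21 in tachypaced libraries, a shift of -0.24 without overlap (exact permutation p = 0.1, 0.2 adjusted over the 8 pairs). The excess of Fasn over Elovl6 shifted by -0.37 and that of Acly over Acss2 by 0.11, while Fasn minus Me1 went from a mean of -2.60 to -3.25, so Fasn lay 0.65 further below Me1 in tachypaced libraries, each without overlap and each at the same exact p and adjusted p as Fasn and Acaca. Between paralogs the libraries of the groups overlapped. The shift was -0.33 for Elovl6 against Elovl1 and -0.35 for Elovl6 against Elovl5 (exact permutation p = 0.2, adjusted p = 0.267 each), 0.20 for Fads1 against Fads2 (exact permutation p = 0.3, adjusted p = 0.343) and 0.02 for Elovl5 against Elovl1 (exact permutation p = 0.9, adjusted p = 0.9).

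Upstream sequence is shown for Fasn and Acly, which passed, and for Elovl1, whose groups overlapped, so that genes with and without a separation of the groups stand side by side. Each is the 250 bases before the RefSeq start site on GRCm38.p6, 5′ to 3′ on the gene's strand, and no exon of GENCODE M21 lies in them. Capitals mark CCAAT, the NF-Y box, and TCACCC, the core of the sterol response element bound by SREBP, on either strand.
Fasn (chr11:120824548-120824797, - strand): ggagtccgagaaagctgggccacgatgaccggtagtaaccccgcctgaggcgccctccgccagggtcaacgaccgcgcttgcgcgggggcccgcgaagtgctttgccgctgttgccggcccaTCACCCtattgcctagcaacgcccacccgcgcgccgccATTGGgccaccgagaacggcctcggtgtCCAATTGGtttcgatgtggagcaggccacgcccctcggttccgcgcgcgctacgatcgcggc
Acly (chr11:100528001-100528250, - strand): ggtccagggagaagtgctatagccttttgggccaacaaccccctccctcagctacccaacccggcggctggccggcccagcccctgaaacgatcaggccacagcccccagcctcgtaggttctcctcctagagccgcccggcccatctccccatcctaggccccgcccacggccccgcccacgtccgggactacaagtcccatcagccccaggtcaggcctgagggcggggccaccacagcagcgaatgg
Elovl1 (chr4:118427843-118428092, + strand): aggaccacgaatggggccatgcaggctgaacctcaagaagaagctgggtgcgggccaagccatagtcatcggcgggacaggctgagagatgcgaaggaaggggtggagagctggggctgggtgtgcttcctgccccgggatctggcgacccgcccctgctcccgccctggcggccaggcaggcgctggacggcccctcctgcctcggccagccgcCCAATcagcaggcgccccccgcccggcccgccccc
The Fasn window held TCACCC beginning 128 bases before the start site, and the NF-Y box 90, 62 and 59 bases before it, the last 2 overlapping as CCAATTGG. Acly held neither and Elovl1 the NF-Y box once, 35 bases before the start.

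RefSeq windows were matched for 9 of the 10 genes, 11 windows in all, the exception being Fads1. The Acaca window lies at an internal start site. Elovl1 and Me1 each had a second window, at start sites 1608 and 8676 bases from the annotated gene start. The CCAAT of Me1 lay only in its second window. On both strands of the 250 bases, CCAAT was in 5 of the 11 and in 33.8% of 32851 windows of that length, and TCACCC was in 3 of the 11 (Fasn, Acss2 and Me1) and in 13.8%. The GC box GGGCGG was in 6 of the 11, both Elovl1 windows among them, and in 32.7%. The E-box CACGTG was in 1 of the 11 (Elovl5) and in 6.02%. These are letter matches and not binding sites.

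The other genes of the pathway were read from 7 lists with 63 tested genes, of which 8 fell and 2 rose, with a median log2 fold change of -0.08. Of 15 tested genes listed under acetyl-CoA and NADPH supply, 1 fell and 0 rose. This was Me2, the mitochondrial NAD-linked malic enzyme, from 120 ± 14.2 to 93.3 ± 2.52 FPKM (log2 fold change -0.35, limma adjusted p = 0.0464). Being NAD-linked, Me2 is not a direct source of cytosolic NADPH, so this call does not show that NADPH supply fell. The median of this list was -0.22, and 13 of the 15 genes were negative. At an unadjusted limma p under 0.05, 11 of the 15 were counted, all lower. That p was reached by 3124 of the 10361 tested genes, in either direction. The citrate carrier Slc25a1 stood at 111 ± 11.4 and 95.5 ± 5.14 FPKM (adjusted p = 0.107, limma). G6pdx, the first enzyme of the pentose phosphate route to NADPH, stood at 48.6 ± 7.18 and 38.9 ± 2.15 FPKM (adjusted p = 0.0885, limma). In both of these genes control replicate 1 lay within the range of the tachypaced libraries.

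The partners of the elongases had a median log2 fold change of -0.06. Elongation needs a reductase, a dehydratase and a second reductase after each condensation, and of 6 tested genes for these steps 0 passed limma in either direction (1 at an unadjusted p under 0.05). The ketoreductase Hsd17b12 stood at 36.7 ± 1.51 and 34.7 ± 1.51 FPKM and the enoyl reductase Tecr at 72.4 ± 6.86 and 63.002 ± 2.18 FPKM. Of the other elongases, Elovl2 and Elovl7 were listed at 0 in every library. In the mitochondrial fatty acid synthesis list, a separate pathway that supplies lipoic acid, 0 of 7 tested genes passed limma (0 at an unadjusted p under 0.05) with a median of -0.01. Of 7 genes of malonyl-CoA handling 0 passed limma (1 at an unadjusted p under 0.05).

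Of 6 other tested desaturase genes 4 fell and 0 rose, all of them stearoyl-CoA desaturases, which place the first double bond in stearate and palmitate. Scd1 stood at 43.8, 63.8 and 63.4 FPKM in control and at 33.2, 35.8 and 37.8 FPKM in tachypaced libraries, a log2 fold change of -0.64 (SE 0.13, limma adjusted p = 0.0435). For Scd2 the log2 fold change was -0.93, for Scd3 -0.99 and for Scd4 -0.95, and reads of these similar genes may be assigned to one or another. Of 7 acyl-CoA synthetase and fatty acid transport genes 2 rose and 0 fell. Yet the list median was -0.14, 5 of the 7 were negative, and 3 were lower at an unadjusted limma p under 0.05. Slc27a1, a fatty acid transport protein with acyl-CoA synthetase activity, rose from 61.3 ± 3.90 to 74.1 ± 0.337 FPKM (log2 fold change 0.27, limma adjusted p = 0.0435). Acsbg1, an acyl-CoA synthetase, rose from 1.68 ± 0.0982 to 2.45 ± 0.210 FPKM (log2 fold change 0.36, limma adjusted p = 0.0467).

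Of 15 tested regulators 3 fell and 0 rose. Srebf1, whose product SREBP1 acts mainly on fatty acid genes, stood at 14.2, 17.8 and 17.7 FPKM in control and at 11.6, 12.3 and 12.9 FPKM in tachypaced libraries (log2 fold change -0.40, SE 0.09, limma adjusted p = 0.0464). Srebf2, whose product acts mainly on sterol genes, fell from 84.1 ± 8.55 to 64.3 ± 2.36 FPKM (log2 fold change -0.38, limma adjusted p = 0.0435). Insig1, which holds the SREBP precursors in the endoplasmic reticulum, fell from 29.8 ± 4.29 to 19.6 ± 2.28 FPKM (log2 fold change -0.58, limma adjusted p = 0.0435). In all 3 genes control replicate 1 was the lowest control. Mlxipl, the carbohydrate-responsive regulator of the same enzymes, was at or near 0 in every library.

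**Figure D3:**
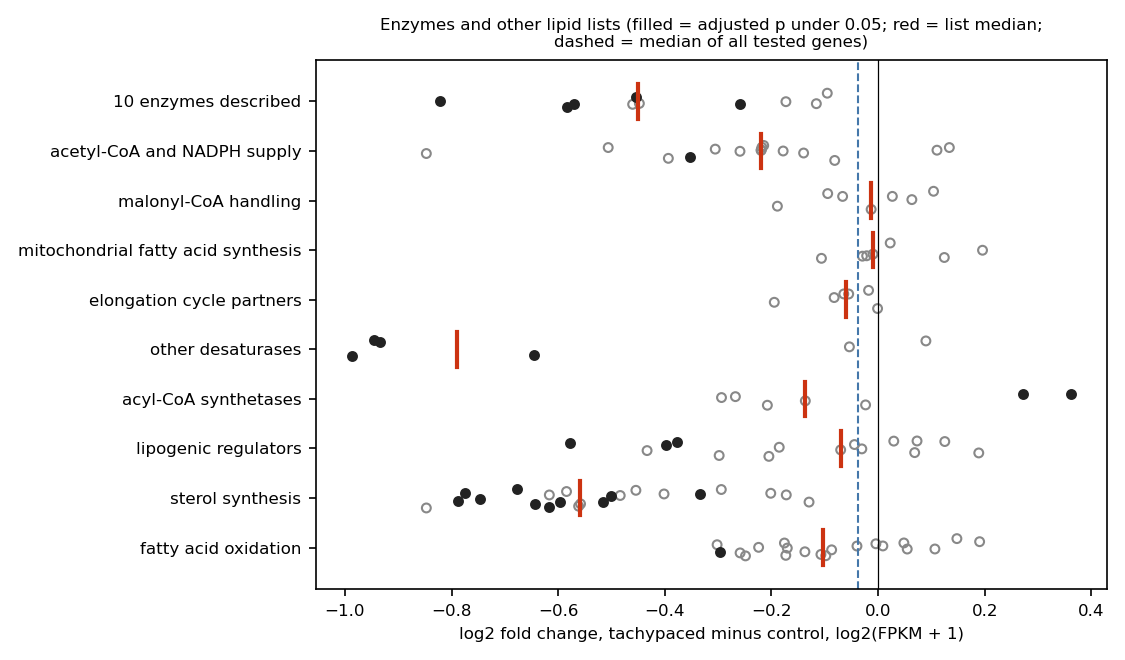
Log2 fold change (x axis, log2(FPKM + 1) scale) of every tested gene of the 10 enzymes and of 9 other lipid lists, filled where the adjusted p was under 0.05, with the list median in red and the median of all tested genes dashed. The enzymes, the desaturases and sterol synthesis have medians of -0.45, -0.79 and -0.56, and the other lists lie between -0.22 and -0.01.

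A neighbouring pathway that shares the SREBP regulators and one that runs the opposite way give a scale for these values. Of 22 tested sterol pathway genes 10 fell and 0 rose, with a median of -0.56, and the largest decreases among those that passed were those of Lss, Fdps, Idi1 and Hmgcs1 at -0.79, -0.77, -0.75 and -0.68. Of 20 tested fatty acid oxidation genes 1 fell and 0 rose, with a median of -0.10. This was Etfdh, which passes electrons from acyl-CoA dehydrogenases to ubiquinone, and Cpt1a, the entry step of long-chain acyl groups to mitochondria, stood at 7.98 ± 0.683 and 6.55 ± 0.510 FPKM (limma adjusted p = 0.0912). At an unadjusted limma p under 0.05, 8 of the 20 oxidation genes were counted, 7 of them lower, and 19 of the 22 sterol genes, all lower. Of all 10361 tested genes 3124 reached that p, in either direction. In 8 of the 20 oxidation genes and 19 of the 22 sterol genes every tachypaced library lay below every control library. This held for 22.4% of tested genes. The difference between the lists was not tested. Without control replicate 1 the counts that fell were 12 of 15 for acetyl-CoA and NADPH supply (1 rose), 6 of 15 for the regulators (1 rose), 3 of 7 for the synthetases (2 rose), 1 of 6 for the elongase partners, 19 of 22 for sterol synthesis and 8 of 20 for oxidation, where 18.8% of all tested genes fell, while the desaturases stayed at 4 of 6 and the malonyl-CoA and mitochondrial synthesis lists at 0. Acat2 is in both the supply list and the sterol list, so it counts in both of those totals.

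The genes most like Fasn across the 6 libraries were found by the root mean square difference of log2(FPKM + 1), each gene centred on its own mean. Among the 8 nearest outside the 10 enzymes were Rad54l (0.0548), Fdps (0.0770), Lss (0.0840), Idi1 (0.0889), Aurkb (0.0914), Stmn1 (0.103) and Ccnb2 (0.103). Of these 3 belong to sterol synthesis, while Aurkb and Ccnb2 act in mitosis, Rad54l in recombination repair and Stmn1 on microtubules. Among the 10 enzymes the nearest to Fasn were Acaca (0.141) and Acss2 (0.150), and the farthest were Elovl1 (0.425) and Elovl5 (0.428). The mitotic kinase gene Aurkb stood at 16.3, 26.0 and 26.7 FPKM in control and at 13.4, 12.0 and 14.6 FPKM in tachypaced libraries, a likeness to Fasn that its choice by this measure fixes. The part of such cell division genes, of the macrophage markers and of the mitochondrial share that moved with the groups, in the values of the fatty acid enzymes was not tested.

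**Figure D4:**
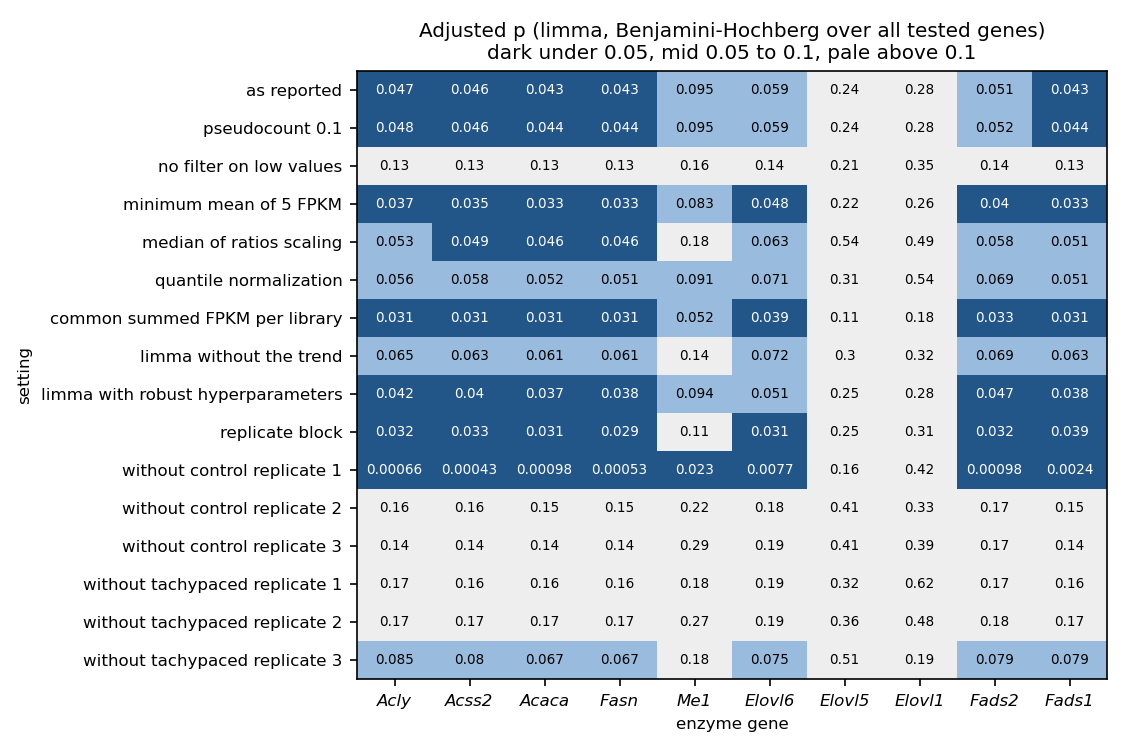
Adjusted p of each enzyme gene (columns) as reported and under each of 15 other settings (rows), dark under 0.05, mid-blue from 0.05 to 0.1 and pale above 0.1. Fasn and Acaca passed in 7 of the 15 and Elovl1 and Elovl5 in 0, and leaving out any library but control replicate 1 left no enzyme past the threshold.

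Every enzyme kept a negative log2 fold change under all 15 settings, from -1.01 to -0.73 for Fasn and from -0.13 to -0.05 for Elovl5. The adjusted p of Fasn ran from 0.000525 without control replicate 1 to 0.172 without tachypaced replicate 2.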

How the data were processed

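Total RNA was made into 3 control and 3 tachypaced libraries with a SMARTER mRNA kit, per the labels' protocols. The authors deposited FPKM values per gene and library. The submitters' processing notes name GRCm38 (mm10) as the build; for the aligner, quantifier, annotation and strand setting the entry is: not given in the sources used here. FPKM is relative to each library's total, so abundant genes shift all others. Columns were matched by sample description, and groups and replicates by title; no 2 libraries were identical.

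Log2(FPKM + 1) of the 10361 genes averaging 1 FPKM or more was fitted with limma 3.58.1 in R 4.3.3 (trend, two-sided, no covariates), with Benjamini-Hochberg adjustment over all of them. This limma fit alone was also run on simulated data with independent noise in each gene and library. Those data hold no library shifted over many genes, so they do not bear on the calls close to the threshold. Exact permutation tests used scipy 1.17.1. Positions are from GENCODE M21 and upstream sequences from RefSeq on GRCm38.p6; motifs were chosen after the windows were seen. The 10 enzymes and the lists were chosen with earlier results of these data known. Named genes were the 10 enzymes, up to 4 called genes per list with the largest changes, 12 fixed genes and the 8 genes most like Fasn; genes named only to show overlap, absence or cell identity were added after their values were seen. Of the genes this rule names, 3 are not reported here. The alternatives were another pseudocount (0.1), no filter or a minimum of 5 FPKM, 3 scalings, limma without trend or with robust hyperparameters, a replicate block, and leaving out single libraries.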

Additional observations from a re-analysis of the deposited data

How the results depend on the processing

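Calls depended on the processing more than directions did. The number of the 10 enzymes that fell was 5 as reported. It was 0 with no filter on low values, with quantile normalization and with limma without the trend, and 3 with median of ratios scaling. It was 6 with robust hyperparameters, 7 with a minimum mean of 5 FPKM and 7 with a common summed FPKM per library. When each library was left out it ran from 0 to 8. At an unadjusted limma p under 0.05, 9 of the enzymes were counted with no filter, 8 with quantile normalization and 8 without the trend. Over all genes this p was reached by 3488 of 15992 with no filter. It was reached by 3008 of 10361 with quantile normalization and by 3057 of 10361 without the trend. Over all tested genes, 334 lower and 238 higher as reported, no filter gave 0 and 0 (3488 genes at an unadjusted p under 0.05 in limma), quantile normalization 4 and 13, limma without the trend 0 and 2, median of ratios scaling 180 lower and a common summed FPKM per library 922 lower. Leaving out each library gave from 0 to 1947 lower and from 1 to 1162 higher, with the upper end of both without control replicate 1. For the 7 pathway lists, 8 lower and 2 higher as reported, the counts were 0 and 0 with no filter, with quantile normalization and with limma without the trend, 14 lower with a common summed FPKM, 1 higher with a minimum mean of 5 FPKM, and from 0 to 26 lower and from 0 to 4 higher when each library was left out. The difference between Elovl5 and Elovl1 reversed, to -0.013 with quantile normalization and to between -0.044 and 0.10 when each library was left out. The cause of these changes was not tested.

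With the replicate block, 7 of the 10 enzymes fell, 591 genes fell over all and 13 in the pathway lists. Same-numbered libraries had correlated deviations of 0.06, -0.03 and 0.16, so the numbers were not taken to pair them, and not every library correlated best with its own number. Depth is unknown and sets no limit that can be given.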
